A study of Mus musculus with 10 samples.

Results

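The genes described here are the 4 ErbB receptors, Egfr, Erbb2, Erbb3 and Erbb4, and 6 genes listed with them as feedback inhibitors. These 6 are Errfi1, Lrig2, Lrig3, Spry1, Spry2 and Spry4. All 10 were chosen by name, and each was read from the 1 transcript that the deposited counts mark as the gene's representative. 9 of the 10 were found among the 18594 genes of the counts. Erbb4 has no row there and is listed at 0 FPKM (a level per transcript length and library total) in all 10 libraries.

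ErbB proteins are cell surface tyrosine kinases that pair up when a ligand of the EGF or neuregulin family binds, and pass the signal on through Ras and the kinase ERK. Egfr and Erbb4 bind ligand and carry an active kinase, Erbb2 has no known ligand of its own and serves as the favoured partner, and Erbb3 binds neuregulins but has a weak kinase and signals through its partner. In the gut, EGF signalling supports the division of crypt stem cells. The signal also induces its own inhibitors: Errfi1 (also called Mig6) binds and blocks the activated kinases, and the Sprouty proteins act between receptor and ERK. Lrig proteins are transmembrane proteins of which Lrig1 is known to lower ErbB protein. The same role is not assumed here for Lrig2 and Lrig3.

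RNA was sequenced from 10 libraries of mouse intestinal cells in 4 groups. The 3 Foxl1 positive libraries came from mesenchyme of Foxl1Cre mice of mixed strain, sorted for telocytes, mesenchymal cells beneath the epithelium that express the forkhead factor Foxl1. Replicates 1 and 2 carried the reporter Rosa-YFP, and replicate 3 carried Rosa-mTmG. The 3 Foxl1 negative libraries were the other sorted cells of Foxl1Cre; Rosa-mTmG mice of mixed strain. The 2 Lgr5 positive libraries were from mice of mixed strain whose genotype is written Lr5-EGFP-IRES CreERT2, where the reporter follows the stem cell receptor Lgr5, with 1 library named male and 1 female. The 2 libraries of differentiated epithelium were from wild type C57BL/6J mice, so strain and genotype cannot be told apart from cell type there. Genotype also differs between the Foxl1Cre and the Lgr5 positive libraries, and cannot be told apart from cell type in that comparison either. Sorted cells follow the Cre driver and the reporter, ages are not given, and no library is tied to an animal, so p-values measure the spread between these libraries, which may be technical in part. Every library carries the tissue label of intestinal mesenchyme. The labels name 3 runs for the Foxl1 positive libraries, 1 for the Foxl1 negative libraries and 2 for each epithelial group. Run was not a term in any fit.

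Several libraries stood apart. Total counts ranged from 1311205 to 99628145, and the Foxl1 negative libraries held counts for 1992, 4097 and 5966 genes against 14332 or more in every other library. Levels are given as CPM, the count relative to the library total scaled by trimmed mean of M values (TMM). Foxl1 negative replicates 1, 2 and 3 had no count for 55.2%, 27.8% and 11.8% of the 306 genes with at least 100 CPM in all 7 libraries of the other groups. Foxl1 itself had 2 counts in the library labelled Foxl1 positive replicate 1, against 31.0 and 11.6 CPM in replicates 2 and 3. Among the Foxl1 positive libraries crypt genes were highest in that one, with Lgr5 at 83.3, 9.20 and 2.74 CPM and 4 Paneth cell markers at 5090, 776 and 56.2 CPM in sum in replicates 1, 2 and 3. Foxl1 negative replicate 1 held 40238 CPM of 5 hepatocyte markers, mostly Alb (35872 CPM), against at most 10546 CPM in any library of the other groups. Foxl1 negative replicate 3 held 2656 CPM of B and plasma cell markers, against at most 33.4 CPM in the other groups, and 401 CPM of T cell markers. Its level of the mesenchymal marker Pdgfra was 2.50 CPM against 731 and 816 CPM in replicates 1 and 2. The 6 fibroblast markers, Pdgfra among them, nevertheless summed to 8081, 12229 and 6193 CPM in Foxl1 negative replicates 1 to 3. None of the 6 was called between Foxl1 positive and Foxl1 negative cells. The summed level of 6 epithelial markers, all detected in each Foxl1 positive library, was 2587, 2768 and 146 CPM in Foxl1 positive replicates 1 to 3. It was 490 to 6823 CPM in Foxl1 negative, 5563 to 6810 in Lgr5 positive and 18959 to 22233 CPM in differentiated epithelium. The 5 T cell markers summed to 399 and 408 CPM in Foxl1 positive replicates 1 and 2 but to 15.4 CPM in replicate 3. Summed levels of 6 smooth muscle markers were 1311, 353 and 8150 CPM in Foxl1 positive replicates 1 to 3. They were 109, 4581 and 0.788 CPM in Foxl1 negative replicates 1 to 3. For 5 endothelial markers the sums were 122, 171 and 766 CPM in Foxl1 positive replicates 1 to 3. All 6 fibroblast markers were called higher in Foxl1 positive cells than in either epithelial group, which held at most 0.789 CPM of them in sum.

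Egfr had its highest levels in the Foxl1 positive libraries, at 112, 59.9 and 111 CPM. It lay at 27.5 and 34.7 CPM in the Lgr5 positive libraries and at 21.1 and 40.6 CPM in differentiated epithelium. In CPM each Foxl1 positive library was above each epithelial one, and the 2 epithelial groups overlapped. The separation did not hold in deposited FPKM, where the Foxl1 positive libraries were at 5.27, 2.80 and 7.93. There replicate 2 lay below Lgr5 positive replicate 2 (3.50) and epithelial replicate 2 (2.81). In the Foxl1 negative libraries the level was 0, 2.53 and 5.15 CPM, below every library of the other groups. By edgeR's quasi-likelihood test, with Benjamini-Hochberg adjustment over all genes tested, the Foxl1 positive excess missed the threshold of 0.05 against Lgr5 positive cells (log2 fold change 1.81 ± 0.59 SE, adjusted p = 0.116). It also missed against differentiated epithelium (1.82 ± 0.67, adjusted p = 0.0945), while DESeq2 gave adjusted p = 0.0122 and 0.0408 for these comparisons. Between Lgr5 positive cells and differentiated epithelium the difference was 0.01 ± 0.39 on the log2 scale (edgeR, adjusted p = 0.978). In bulk libraries such as these, fewer cells of a type and less RNA per cell cannot be told apart.

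The files list 2 transcripts of Egfr, both starting at chr11:16652206 on the plus strand in build mm9. The representative one ends at 16813910 and codes for 1210 codons, and the shorter ends at 16787661 and codes for 655 codons, which leaves out the kinase. The FPKM of the short transcript was 0.596, 0.989 and 1.13 times that of the long one in the Foxl1 positive libraries. This ratio was 0.507 and 0.479 in Lgr5 positive cells and 1.31 and 0.904 in differentiated epithelium. The Lgr5 positive libraries had the lowest ratios among the 3 groups with a count of both in every library, though the transcripts share reads, so the ratio is a description.

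Erbb2, the partner without a ligand of its own, was highest in differentiated epithelium, at 476 and 405 CPM. The Lgr5 positive libraries held 123 and 79.9 CPM, and the Foxl1 positive libraries 107, 72.3 and 45.9 CPM, which overlapped with them. Foxl1 negative libraries were at 0, 30.7 and 0 CPM. The gene, at chr11:98273798-98299030 (mm9, plus strand), was called lower in Lgr5 positive cells than in differentiated epithelium (edgeR, log2 fold change -2.11 ± 0.33, adjusted p = 0.000649). Against differentiated epithelium the Foxl1 positive level just missed (-2.33 ± 0.67, adjusted p = 0.0541). Without Foxl1 positive replicate 3 that comparison passed (-2.19, adjusted p = 0.0137), as it did by DESeq2 (adjusted p = 0.00429). Against Lgr5 positive cells the difference was -0.20 ± 0.62 (edgeR, adjusted p = 0.871). That overlap was in CPM. In deposited FPKM the Foxl1 positive libraries, at 6.03, 4.03 and 3.91, all lay below the Lgr5 positive ones, at 14.6 and 9.60.

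Erbb3, the neuregulin receptor, had the widest range of the receptors. Differentiated epithelium held 402 and 709 CPM, Lgr5 positive cells 58.8 and 53.5 CPM, and Foxl1 positive cells 22.4, 30.2 and 1.26 CPM. The 3 groups did not overlap, and no Foxl1 negative library had a count. Erbb3, at chr10:128006424-128026557 (mm9, minus strand), was called lower in Lgr5 positive cells than in differentiated epithelium (edgeR, log2 fold change -3.30 ± 0.37, adjusted p = 0.000124). It was also called lower in Foxl1 positive cells than in differentiated epithelium (-4.69 ± 1.25, adjusted p = 0.0473), and was not called against Lgr5 positive cells (-1.38 ± 1.14, adjusted p = 0.496). The call against differentiated epithelium was lost without Foxl1 positive replicate 1 or 2 (adjusted p = 0.101 and 0.0842) and without either epithelial library (adjusted p = 0.175 and 0.172). It held without replicate 3 (-4.29, adjusted p = 0.00456).

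**Figure D1:**
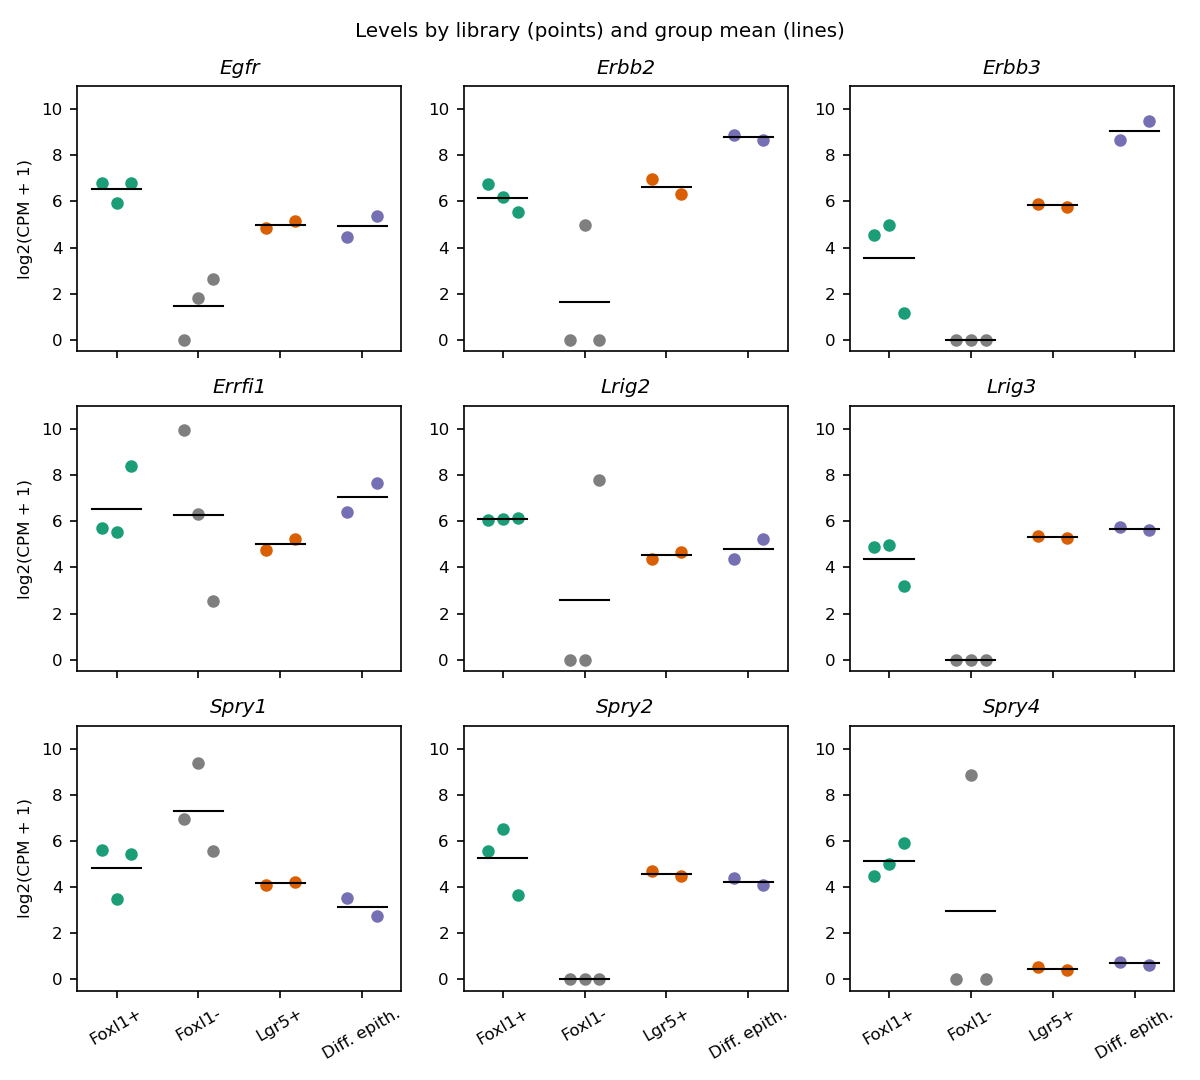
Levels of the 9 counted genes in each library as log2(CPM + 1), with 1 point per library and a line at the mean of the log2 values of each group. Erbb3 separates the 3 groups other than Foxl1 negative, Spry4 lies near the bottom of the scale in all 4 epithelial libraries, and the Foxl1 negative points spread from 0 to 976 CPM (Errfi1).

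Among the Foxl1 positive libraries, replicate 3 held both the least Erbb3 and the least epithelial marker RNA. Epcam, an epithelial adhesion molecule, was at 651, 618 and 40.4 CPM in replicates 1 to 3. Erbb3 was at 22.4, 30.2 and 1.26 CPM, higher in replicate 2 than in replicate 1 while Epcam was lower. For each 100 CPM of Epcam there were 3.44, 4.88 and 3.13 CPM of Erbb3 in these libraries, 3.13 and 2.75 in Lgr5 positive cells and 10.6 and 20.3 in differentiated epithelium. The Foxl1 positive ratios lay between 3.13, which rests on 6 counts of Erbb3, and 4.88, all below those of differentiated epithelium, while Epcam itself ranged from 40.4 to 651 CPM. Foxl1 negative replicate 2 had Epcam at 921 CPM and no count of Erbb3. For Egfr there were 17.2, 9.69 and 275 CPM for each 100 CPM of Epcam in the Foxl1 positive libraries, and for Erbb2 16.5, 11.7 and 114 CPM. The Erbb2 ratios were 6.54 and 4.10 in Lgr5 positive cells and 12.6 and 11.6 in differentiated epithelium. In replicate 3, where Epcam, the epithelial sum and the T cell sum were lowest among the Foxl1 positive libraries, Egfr was at 111 CPM and Erbb2 at 45.9 CPM. That library also had the highest fibroblast marker sum, 72922 CPM against 6096 and 2908 CPM in replicates 1 and 2. Its smooth muscle and endothelial marker sums, 8150 and 766 CPM, were the highest of the Foxl1 positive libraries as well. The part of epithelial RNA in the Foxl1 positive levels of Erbb2 and Erbb3 was not tested.

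**Figure D2:**
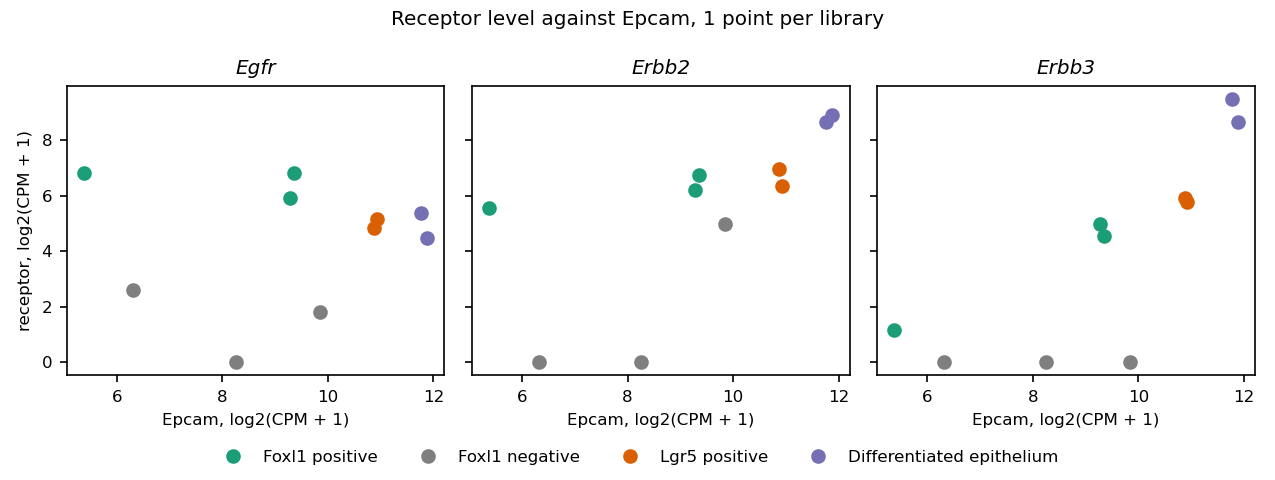
Each receptor as log2(CPM + 1) against Epcam as log2(CPM + 1), with 1 point per library coloured by group. In the Foxl1 positive library with the least Epcam, 40.4 CPM, Erbb3 is at 1.26 CPM and Egfr at 111 CPM.

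Levels per length allow the receptors to be set beside each other. Egfr made up 41.0%, 31.4% and 66.2% of the summed FPKM of Egfr, Erbb2 and Erbb3 in the Foxl1 positive libraries. Its share was 10.5% and 16.6% in Lgr5 positive cells and 1.78% and 2.57% in differentiated epithelium. Erbb3 had the opposite order, with 12.2%, 23.5% and 1.12% in Foxl1 positive cells, 33.4% and 37.9% in Lgr5 positive cells and 50.3% and 66.8% in differentiated epithelium. Erbb2 lay between 30.7% and 56.1% in all 7 of these libraries. The summed FPKM was 8.93 to 12.9 in Foxl1 positive cells, 21.1 to 26.1 in Lgr5 positive cells and 77.9 and 109 in differentiated epithelium. The low Egfr share in differentiated epithelium thus went with high Erbb2 and Erbb3, as Egfr stood at 1.38 and 2.81 FPKM there and at 2.74 and 3.50 FPKM in Lgr5 positive cells. These shares are descriptions with no test.

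**Figure D3:**
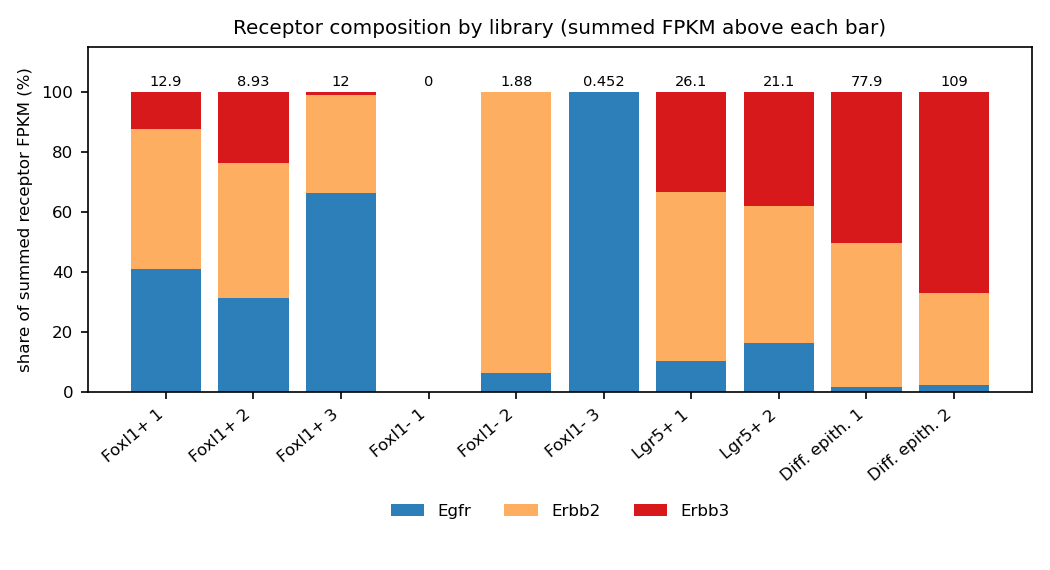
Share of Egfr, Erbb2 and Erbb3 in their summed FPKM in each library, as stacked bars in percent, with the summed FPKM above each bar. Egfr takes 31.4% to 66.2% in Foxl1 positive libraries and at most 2.57% in differentiated epithelium, and Foxl1 negative replicate 1 has no bar because all 3 receptors are at 0.

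Errfi1, the inhibitor that binds the receptor kinases, had a wide spread between libraries of 1 group. The Foxl1 positive libraries held 51.2, 45.3 and 331 CPM and the Foxl1 negative libraries 976, 78.5 and 4.92 CPM. The value of 976 CPM is from the library with 40238 CPM of hepatocyte markers, whose part in it was not tested. Lgr5 positive cells held 26.1 and 36.9 CPM, and differentiated epithelium 84.5 and 200.2 CPM. In CPM both Lgr5 positive libraries lay below every Foxl1 positive and every differentiated epithelium library, and the Foxl1 positive range spanned that of differentiated epithelium. In deposited FPKM the Lgr5 positive libraries were at 5.15 and 7.34, above Foxl1 positive replicates 1 and 2 (4.77 and 4.19) and below replicate 3 (46.7). Errfi1 (chr4:150229200-150242989, mm9, plus strand) was called lower in Lgr5 positive cells than in differentiated epithelium (edgeR, log2 fold change -2.18 ± 0.44, adjusted p = 0.00271). On the log2(FPKM + 1) scale limma gave -1.36 for that comparison and did not call it (adjusted p = 0.0897). Foxl1 positive cells did not pass against Lgr5 positive cells (2.32 ± 1.02, adjusted p = 0.204) or differentiated epithelium (0.14 ± 1.00, adjusted p = 0.927). The sign of the latter turned without Foxl1 positive replicate 3 (-1.45), the library with 331 CPM.

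Erbb2 and Errfi1 were both called lower in Lgr5 positive cells than in differentiated epithelium, and Egfr was not. The 250 bases before their start sites (RefSeq, GRCm38.p6, all plus strand) are given to set these promoters side by side, in lower case with motif matches in capitals. They are Egfr at chr11:16751953-16752202, Erbb2 at chr11:98412234-98412483 and Errfi1 at chr4:150854820-150855069, the latter being the window nearest to the annotated start of the counted transcript.
Egfr: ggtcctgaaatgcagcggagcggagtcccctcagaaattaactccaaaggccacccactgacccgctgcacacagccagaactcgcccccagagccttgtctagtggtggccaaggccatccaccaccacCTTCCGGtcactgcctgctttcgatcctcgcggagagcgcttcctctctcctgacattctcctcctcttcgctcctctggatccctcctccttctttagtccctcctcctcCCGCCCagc
Erbb2: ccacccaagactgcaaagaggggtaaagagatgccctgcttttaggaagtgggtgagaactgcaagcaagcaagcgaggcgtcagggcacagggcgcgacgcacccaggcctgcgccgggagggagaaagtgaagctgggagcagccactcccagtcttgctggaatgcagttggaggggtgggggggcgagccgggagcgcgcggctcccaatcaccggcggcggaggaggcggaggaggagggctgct
Errfi1: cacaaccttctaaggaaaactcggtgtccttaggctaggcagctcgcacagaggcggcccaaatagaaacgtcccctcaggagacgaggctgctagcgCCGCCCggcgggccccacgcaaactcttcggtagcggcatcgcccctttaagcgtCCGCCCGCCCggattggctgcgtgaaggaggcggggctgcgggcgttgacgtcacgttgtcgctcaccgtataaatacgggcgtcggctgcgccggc
8 of the 10 genes were matched by symbol, with Erbb3 and Spry4 unmatched. Both strands were searched for a GC box (GGGCGG), an ETS motif (CCGGAAG), an AP-1 motif (TGANTCA), a TCF motif (CTTTGAT) and a CDX motif (TTTATNG). Egfr held a GC box beginning 9 bases before the start and an ETS match 120 bases before it, each on the minus strand. Errfi1 held 3 GC box matches on the minus strand, beginning 152, 97 and 93 bases before the start, the last 2 of which overlap, and Erbb2 held none of the 5 motifs. Of 32851 promoters of the same length, 32.7% held the GC box, 6.91% the ETS motif, 6.75% the AP-1 motif, 3.21% the TCF motif and 9.81% the CDX motif. GC content was 60.8% for Egfr, 66% for Erbb2 and 64.8% for Errfi1, against a median of 52.4% over all promoters.

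Lrig2 had nearly equal levels in the Foxl1 positive libraries, at 66.3, 66.4 and 68.8 CPM. It lay at 19.8 and 24.6 CPM in Lgr5 positive cells and at 19.7 and 36.4 CPM in differentiated epithelium, so that every Foxl1 positive library was above every epithelial one. The Foxl1 negative libraries were at 0, 0 and 218 CPM, the last in the library with 2656 CPM of B and plasma cell markers, whose part in it was not tested. The excess was not called by edgeR against Lgr5 positive cells (log2 fold change 1.81 ± 0.56, adjusted p = 0.104) or differentiated epithelium (1.47 ± 0.62, adjusted p = 0.129). Without Foxl1 positive replicate 3 the former passed (1.86, adjusted p = 0.0373).

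Lrig3, a paralog of Lrig2, had another order. It was at 28.1, 30.4 and 8.21 CPM in Foxl1 positive cells, 39.4 and 37.8 CPM in Lgr5 positive cells and 52.9 and 47.4 CPM in differentiated epithelium. No Foxl1 negative library had a count, and the Foxl1 positive library with the least Epcam again held the least Lrig3. For each 100 CPM of Epcam, however, there were 4.32, 4.92 and 20.3 CPM of Lrig3 in Foxl1 positive replicates 1 to 3. In Lgr5 positive cells there were 2.10 and 1.94 CPM, and in differentiated epithelium 1.40 and 1.36 CPM. The lower Foxl1 positive level was not called against Lgr5 positive cells (edgeR, -0.54 ± 0.79, adjusted p = 0.712) or differentiated epithelium (-0.93 ± 0.78, adjusted p = 0.404). The Lgr5 positive level lay below that of differentiated epithelium in CPM (-0.37 ± 0.28, adjusted p = 0.270) and above it on the log2(FPKM + 1) scale (0.16), with neither called.

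Spry4 set the Foxl1 positive libraries apart from the epithelial ones by the largest fold among the 9 genes. Its level was 21.3, 30.8 and 59.1 CPM in Foxl1 positive cells against 0.443 and 0.319 CPM in Lgr5 positive cells and 0.684 and 0.567 CPM in differentiated epithelium. Replicate 3, with the lowest epithelial and T cell and the highest fibroblast, smooth muscle and endothelial marker sums of the 3, held the most. Spry4 was called higher in Foxl1 positive than in Lgr5 positive cells (edgeR, log2 fold change 6.77 ± 1.05, adjusted p = 0.0227) and than in differentiated epithelium (6.04 ± 0.99, adjusted p = 0.0181). The first call was lost without Foxl1 positive replicate 1 or 2 (adjusted p = 0.0789 and 0.0751) or either Lgr5 positive library (0.170 and 0.199), where no gene of the whole table was called, and the second without either epithelial library (0.180 and 0.158). In the Foxl1 negative libraries Spry4 was at 0, 456 and 0 CPM. The value of 456 CPM is from the library with 4581 CPM of smooth muscle markers, whose part in it was not tested.

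Spry1 had counts in all 10 libraries, and Spry2 in all but the Foxl1 negative ones. Spry1 was at 47.3, 10.2 and 42.1 CPM in Foxl1 positive and 125, 666 and 46.1 CPM in Foxl1 negative cells. The value of 666 CPM is from the library with 4581 CPM of smooth muscle markers, whose part in it was not tested. In the epithelial groups Spry1 was at 16.1 and 17.7 CPM (Lgr5 positive cells) and 10.6 and 5.67 CPM (differentiated epithelium). Spry2 was at 46.6, 91.2 and 11.6 CPM in Foxl1 positive cells, 24.7 and 21.2 in Lgr5 positive cells and 19.9 and 16.2 CPM in differentiated epithelium. The Foxl1 positive ranges of both genes overlapped with the Lgr5 positive ones, and Foxl1 positive replicate 2 was lowest in Spry1 and highest in Spry2. Spry1 was called higher in Lgr5 positive cells than in differentiated epithelium (edgeR, log2 fold change 1.06 ± 0.40, adjusted p = 0.0462). This call did not hold under median-of-ratios scaling (adjusted p = 0.0693), by DESeq2 (0.0501), or without Lgr5 positive replicate 1 (0.0757), Lgr5 positive replicate 2 (0.123) or epithelial replicate 2 (0.232). Neither gene was called between Foxl1 positive and Lgr5 positive cells, where Spry1 stood at 1.18 ± 0.86 and Spry2 at 1.38 ± 0.95 by edgeR (adjusted p = 0.432 and 0.407), and limma on log2(FPKM + 1) turned both signs (-0.07 and -0.14).

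Among the 3 Sprouty genes described here, per length, Spry4 made up 10.1%, 12.3% and 36.5% of the summed FPKM of Spry1, Spry2 and Spry4 in Foxl1 positive libraries. Its share was 0.525% and 0.401% in Lgr5 positive cells and 1.07% and 1.21% in differentiated epithelium. Of the 3, Spry2 had the largest share in the epithelial libraries, with 58.5% to 76.4%. The summed FPKM of the 3 genes was 12.9 to 15.2 in Foxl1 positive cells, 10.4 and 10.9 in Lgr5 positive cells and 4.20 and 5.46 in differentiated epithelium.

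Foxl1 positive and Foxl1 negative cells were compared as the positive and negative sorts of 1 tissue, although Foxl1 negative replicates 1 and 3 held the hepatocyte and B cell markers given above. Of the Foxl1 positive libraries, only replicate 3 carried Rosa-mTmG, the reporter of all Foxl1 negative libraries. The labels name 3 runs for the Foxl1 positive and 1 for the Foxl1 negative libraries. The part of reporter and run in these differences was not tested. 8 of the genes passed the filter on low counts, and Erbb3 did not. 2 were called higher in Foxl1 positive cells, Lrig3 (edgeR, fitted log2 fold change 11.07 ± 1.92, adjusted p = 0.0116) and Spry2 (12.24 ± 2.64, adjusted p = 0.0142), where 42.2% of all genes tested were called higher. Both had no count in Foxl1 negative cells. Their mean Foxl1 positive CPM was 228-fold and 510-fold above a floor of 3 counts over that group. The floor covers counting error only, and not the missing counts of highly expressed genes in those libraries, so these folds are not lower bounds. All 4028 genes without a Foxl1 negative count were called likewise. No ErbB gene was called lower by edgeR, DESeq2 or limma, none had an unadjusted p under 0.05 in that direction, and 0% of all genes were called. Egfr was 5.71 ± 2.33 higher on the log2 scale and missed by edgeR (adjusted p = 0.0949), passed by DESeq2 (adjusted p = 0.00206), and also passed (6.90, adjusted p = 0.0295) once Foxl1 negative replicate 3 was left out. Errfi1, Spry1 and Spry4 were each above 100 CPM in some Foxl1 negative library, with differences of -0.58 ± 2.07, -2.31 ± 1.87 and -1.27 ± 3.02. The sparse Foxl1 negative libraries decide these values: Spry4 went from -1.27 to 11.74 without replicate 2, and Errfi1 from -0.58 to 2.49 without replicate 1.

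Against Lgr5 positive cells, 1 of the 9 genes was called higher in Foxl1 positive cells, Spry4, where 4.84% of all genes were. None was called lower by edgeR, where 0.884% of all genes were, none had an unadjusted p under 0.05 in that direction and DESeq2 called none. Limma on log2(FPKM + 1) with a filter of 1 FPKM called Erbb3 lower (-2.17, adjusted p = 0.0362). Against differentiated epithelium 1 gene was called higher, Spry4, and 1 lower, Erbb3, where 10.6% and 7.19% of all genes were. The 3 Foxl1 positive comparisons share the Foxl1 positive libraries. With Foxl1 positive replicate 3 alone, the log2 fold change of Spry4 was 7.53 against Lgr5 positive cells and 6.64 against differentiated epithelium. That of Erbb3, with 6 counts in this library, was -8.70 against differentiated epithelium. No spread between Foxl1 positive libraries enters such a fit, so no call is drawn from it. That setting was chosen after the data were seen.

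Between the epithelial groups, 1 gene was called higher in Lgr5 positive cells, Spry1, and 3 lower, Erbb2, Erbb3 and Errfi1, where 34.4% and 31.9% of all genes were. The 3 lower calls held without any 1 library and under DESeq2 and median-of-ratios scaling. They were lost when the 3 Foxl1 positive libraries joined the fit (adjusted p = 0.0604, 0.107 and 0.161), a setting chosen after the data were seen, and in a fit of all 10 libraries, in which no gene of the table was called in this comparison.

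**Figure D4:**
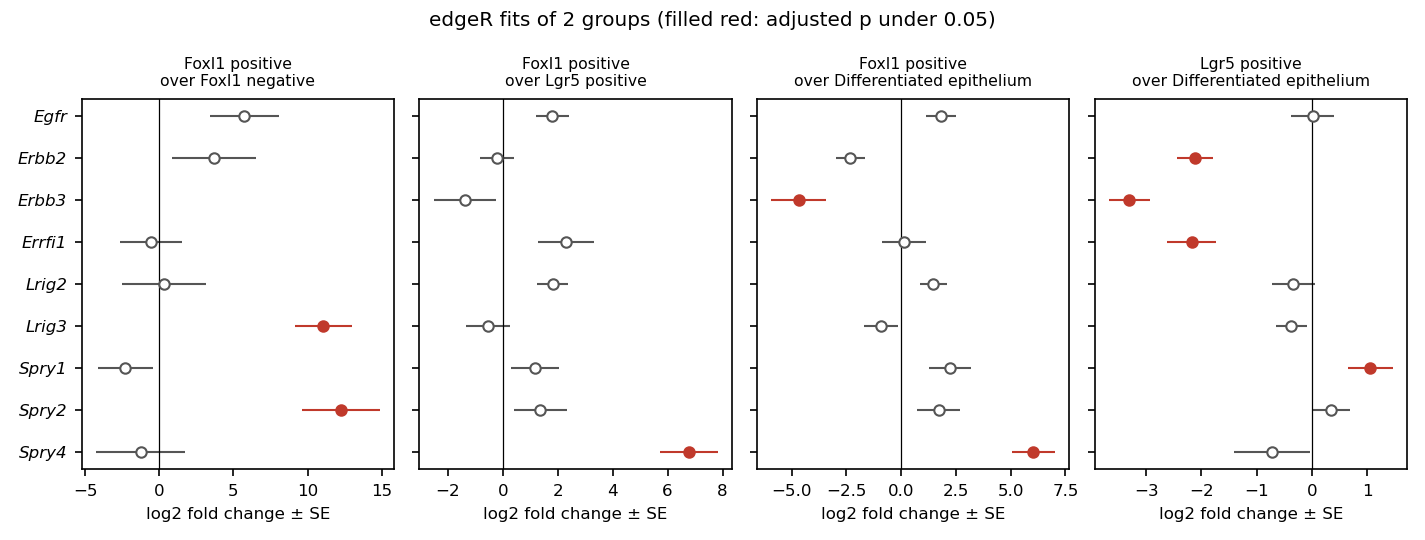
Log2 fold change ± SE of each gene in the 4 comparisons, each from an edgeR fit of its 2 groups, with filled red points where the adjusted p was under 0.05 and scales that differ between panels. Red points are Lrig3 and Spry2 in the first panel, Spry4 in the second, Spry4 and Erbb3 in the third, and Erbb2, Erbb3, Errfi1 and Spry1 in the fourth.

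The ligands were read from a list of 11. Ereg (epiregulin, a ligand of Egfr and Erbb4) was at 61.8, 29.4 and 200.7 CPM in Foxl1 positive cells, and at no more than 5.67 CPM in any epithelial library. It was called higher than in Lgr5 positive cells (edgeR, log2 fold change 5.98 ± 1.15, adjusted p = 0.0379) and than in differentiated epithelium (4.77 ± 1.13, adjusted p = 0.0367), and had no Foxl1 negative count. Nrg1 (neuregulin 1, a ligand of Erbb3 and Erbb4) was at 1.16, 43.8 and 12.6 CPM in Foxl1 positive cells, with 1 count in the 4 epithelial libraries together. It was called higher than in differentiated epithelium (edgeR, adjusted p = 0.036), and its replicate 1 level is from the library with 2 counts of Foxl1. Areg (amphiregulin), Hbegf and Tgfa, 3 ligands of Egfr, were called lower in Lgr5 positive cells than in differentiated epithelium, with Areg at 0.947 and 1.13 CPM against 52.9 and 81.8 CPM (edgeR, -6.01 ± 0.42, adjusted p = 2.13e-05). Hbegf was also called lower in Foxl1 positive cells than in differentiated epithelium (-3.82 ± 0.80, adjusted p = 0.028). The Ereg call against Lgr5 positive cells was lost without Foxl1 positive replicate 1 (adjusted p = 0.0917) or 2 (0.0775) or either Lgr5 positive library (0.167 and 0.238). Against differentiated epithelium it was lost without Foxl1 positive replicate 1 (0.0606), and those of Nrg1 and Hbegf without Foxl1 positive replicate 2 (0.0614 and 0.0623), as were all 3 without either epithelial library (0.167 to 0.278).

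Counts over the ligand list followed. 1 of 10 ligands tested was called higher in Foxl1 than in Lgr5 positive cells and none lower, beside 4.84% and 0.884% of all genes. Against differentiated epithelium 2 of 9 were called higher and 1 lower, beside 10.6% and 7.19%. Between Lgr5 positive cells and differentiated epithelium 3 of 8 were called in each direction, near the 34.4% and 31.9% of all genes, and against Foxl1 negative cells 1 of 3 was called higher, Ereg, beside 42.2%. The median log2 fold changes were 0.20, 0.25, -0.72 and 0.88 in these 4 comparisons, against 0.06, 0.32, 0.12 and 3.47 over all genes tested. Of 5 genes of ligand release (the sheddases Adam10 and Adam17 and 3 rhomboid family genes), none was called between Foxl1 positive cells and either epithelial group. 2 of 4 were called higher than in Foxl1 negative cells, near the 42.2% of all genes, and Rhbdl2 and Rhbdf2 were called lower and Rhbdf1 higher in Lgr5 positive cells than in differentiated epithelium.

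Of 12 genes of receptor traffic and turnover, Sh3kbp1, an adaptor in Cbl-dependent receptor uptake, was at 90.4, 173 and 149 CPM in Foxl1 positive cells against 5.40 and 14.1 CPM in Lgr5 positive cells and 4.13 and 4.93 CPM in differentiated epithelium. It was the 1 gene of the 12 called against Lgr5 positive cells (edgeR, 4.04 ± 0.76, adjusted p = 0.0355), beside 4.84% of all genes called higher and 0.884% lower. Both Sh3kbp1 and Socs5, a factor linked to Egfr degradation, were called higher than in differentiated epithelium. None of the 12 was called lower there, beside 10.6% of all genes called higher and 7.19% lower. The Sh3kbp1 call against Lgr5 positive cells was lost without Foxl1 positive replicate 1 or 2 or either Lgr5 positive library (adjusted p = 0.0866 to 0.340), and both calls against differentiated epithelium without either epithelial library (Sh3kbp1 0.136 and 0.176, Socs5 0.329 and 0.358). The Socs5 call was also lost without Foxl1 positive replicate 1 (0.0540) or 2 (0.0557). Sh3kbp1 reached 265 CPM in Foxl1 negative replicate 3, the library with the high B and plasma cell sum, whose part in it was not tested. Lrig1, the best known of the Lrig genes, was at 243 and 280 CPM in Lgr5 positive cells. In differentiated epithelium it was at 22.0 and 22.3 CPM (edgeR, 3.57 ± 0.30, adjusted p = 3.62e-05). Neither Lrig2 nor Lrig3 was called in that comparison. Foxl1 positive cells held 169, 54.8 and 89.4 CPM of Lrig1, with the highest level in replicate 1, where Lgr5 and the Paneth cell markers were also highest, and their part in it was not tested. In that epithelial comparison 3 of the 12 were called higher and 5 lower, beside 34.4% and 31.9% of all genes, and against Foxl1 negative cells 6 of 12 were called higher and none lower, beside 42.2% and 0%.

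Below the receptors, the Ras to ERK chain was compared with differentiated epithelium. Of 15 genes, 1 was called higher and 3 lower in Foxl1 positive cells, where 10.6% and 7.19% of all genes were, and 1 higher and 8 lower in Lgr5 positive cells, where 34.4% and 31.9% were. Map2k1, Map2k2 and Mapk3, which code for MEK1, MEK2 and ERK1, were among the lower calls in both, with Map2k1 at 322 and 311 CPM in differentiated epithelium, 59.8 and 73.1 CPM in Lgr5 positive cells and 32.1, 27.0 and 70.9 CPM in Foxl1 positive cells. The Foxl1 positive calls of Map2k1, Map2k2 and Mapk3 were lost without Foxl1 positive replicate 1 or 2 or either epithelial library (edgeR, adjusted p = 0.0555 to 0.244), and those of Lgr5 positive cells held without any 1 library. None of the 15 was called by edgeR between Foxl1 and Lgr5 positive cells, beside 4.84% of all genes called higher and 0.884% lower. Braf had the smallest p there (edgeR, 2.49 ± 0.86, adjusted p = 0.128). 4 of the 15 were called higher than in Foxl1 negative cells, where 42.2% of all genes were.

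Among 14 genes of ERK response and other ERK feedback, Egr1, an immediate early transcription factor, was called higher in Foxl1 positive cells against both epithelial groups. Its level was 575, 250.4 and 358 CPM against 34.5 and 11.2 CPM in Lgr5 positive cells (edgeR, 4.32 ± 0.90, adjusted p = 0.0458) and 16.1 and 31.3 CPM in differentiated epithelium (4.28 ± 0.85, adjusted p = 0.0255). It was the 1 gene of 12 called against Lgr5 positive cells, beside 4.84% of all genes called higher and 0.884% lower. Against differentiated epithelium 4 of 11 were called higher and none lower (10.6% and 7.19% of all genes), Etv5 and Ccnd1 among them. The Egr1 call against Lgr5 positive cells was lost without Foxl1 positive replicate 1 or 2 or either Lgr5 positive library (adjusted p = 0.0962 to 0.397), and the other without either epithelial library (0.281 and 0.179). Dusp6, an ERK phosphatase, was at 12.3 and 17.7 CPM in Lgr5 positive cells and at 390.3 and 349 CPM in differentiated epithelium (edgeR, -4.62 ± 0.34, adjusted p = 2.46e-05), the direction of Errfi1. Ccnd1 (cyclin D1) went the other way, at 268 and 186 CPM against 10.4 and 11.1 CPM (4.41 ± 0.35, adjusted p = 2.93e-05). In that comparison 5 of 14 were called higher and 5 lower, near the 34.4% and 31.9% of all genes, and against Foxl1 negative cells 5 of 8 were called higher, beside 42.2%.

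Genes with the most similar pattern were sought over the 10 libraries by Pearson correlation of log2(CPM + 1), among 9891 genes with a mean of at least 10 CPM. For Egfr they were Ubap2l (r = 0.972), Ash1l (0.960) and Fam126a (0.959), and for Erbb2 they were Vps53 (0.993), Hadha (0.993) and Cd151 (0.988). Pnp2 (0.995), Rwdd2b (0.994) and Wwc1 (0.992) were nearest to Erbb3. Errfi1 had the loosest matches, Txnip (0.873), Brox (0.868) and Ces1c (0.851). Among the members, Lrig3 followed Spry2 (0.928) and Erbb3 (0.908) most closely, Errfi1 and Erbb2 had r = 0.02, and Erbb3 and Spry1 had r = -0.83. All these values rest on 10 points that share the zeros and shallow depth of the Foxl1 negative libraries, and they carry no test.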

How the data were processed

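RNA of 10 libraries was analysed, grouped by the sample titles. Cells were sorted after digestion with Dispase and trypsin and their RNA went into a New England BioLabs library kit, per the labels' protocols. The authors deposited read counts per transcript, not normalized, and FPKM per transcript. Per the submitters' processing notes, CASAVA 1.8.2, edgeR and build mm9 were used. The aligner, counter and strand setting were not given in the sources used here. Reads of a gene and an antisense partner may therefore not be told apart.

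The 1 transcript per gene marked as representative in the deposited counts was used. Levels are CPM on 1 TMM scaling of all 10 libraries. Each comparison was fitted to its 2 groups with edgeR 4.0.16 in R 4.3.3 (filterByExpr, robust glmQLFit, 2-sided glmQLFTest), with adjusted p under 0.05 as the threshold. Alternatives were DESeq2 1.42.0, limma 3.58.1 on log2(FPKM + 1) or log2(FPKM + 0.1), other filters, scalings, transcripts and fits, and leaving out each library. The fits were tested on simulated data. A count of 0 over a group allows 3 counts, or 0.113 and 0.0976 CPM for Foxl1 positive and negative cells, 0.0192 CPM for Lgr5 positive cells and 0.0389 CPM for differentiated epithelium. Such floors cover counting error only. TMM factors were 0.460 and 0.501 in differentiated epithelium and 1.07 to 1.60 elsewhere, and some differences in CPM and in the deposited FPKM have opposite signs. Replicates differed beyond sampling noise (chi-square per degree of freedom 134 or more).

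The genes and lists were chosen with earlier results of these data known. Named genes were the members, up to 3 called genes with the smallest p per pathway list and comparison (or the 1 with the smallest p where none was called), and the 3 genes most correlated with Egfr, Erbb2, Erbb3 and Errfi1. Some genes so chosen are given only as counts. Correlations between members to print were chosen after their values were seen.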

Additional observations from a re-analysis of the deposited data

How the results depend on the processing

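Over the 4 comparisons, 451 of 571 fold changes of the ErbB genes recomputed under an alternative kept their direction and their side of the threshold, 37 kept the direction but lost the call, 38 gained one and 45 changed sign. Called genes of the pathway lists were recomputed likewise, and 832 of 1103 values kept the call, 271 lost it and none changed sign. "All 10 libraries" and "7 libraries" (those other than Foxl1 negative) are joint fits, "replicate 3 alone" leaves out Foxl1 positive replicates 1 and 2, and the latter 2 settings were chosen after seeing the data. Limma ran on log2(FPKM + 1), with a pseudocount of 0.1 in its place ("limma at 0.1") or a filter of 1 FPKM ("filtered limma"). Counts are given where they moved by over 1.5 times, and ranges are over leaving out 1 library at a time, where a lone library of a group is assumed to vary like the other group. The causes of these shifts were not tested. With replicate 3 alone no spread between Foxl1 positive libraries enters the fit, so its counts are descriptions. Median-of-ratios scaling moved the median log2 fold change of all genes by -0.15, 0.19, -0.03 and -0.12 in the order below.

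Between Foxl1 positive and Foxl1 negative cells, 4723 genes were called higher, or 2645 with limma, 2776 with filtered limma and 0 with the replicate block and replicate 3 alone, and 4823 to 8207 without 1 library. 0 genes were called lower, or 2 with median-of-ratios scaling, 72 with DESeq2, 1 with no filter, 68 with all 10 libraries, 6 with limma, 12 with limma at 0.1 and 17 with filtered limma, and 0 to 33 without 1 library. 2 of the ErbB genes were called higher, or 4 with DESeq2, all 10 libraries and limma at 0.1 and 0 with the replicate block and replicate 3 alone, and 2 to 5 without 1 library. Between Foxl1 positive and Lgr5 positive cells, 690 genes were called higher, or 2908 with DESeq2, 0 with all 10 libraries, 250 with limma, 404 with limma at 0.1, 2065 with the replicate block, 4013 with replicate 3 alone and 1285 with 7 libraries, and 0 to 2123 without 1 library. 126 genes were called lower, or 770 with DESeq2, 0 with all 10 libraries, 2177 with limma, 1421 with limma at 0.1, 3163 with filtered limma, 1169 with the replicate block, 4313 with replicate 3 alone and 445 with 7 libraries, and 0 to 1181 without 1 library. 1 of the ErbB genes was called higher, or 3 with DESeq2, 0 with all 10 libraries, limma, limma at 0.1 and filtered limma and 5 with replicate 3 alone, and 0 to 2 without 1 library. 0 of the ErbB genes were called lower, or 1 with filtered limma and 2 with replicate 3 alone. Between Foxl1 positive cells and differentiated epithelium, 1467 genes were called higher, or 3693 with DESeq2, 0 with all 10 libraries, 293 with limma, 587 with limma at 0.1, 669 with filtered limma, 2478 with the replicate block and 4466 with replicate 3 alone, and 0 to 3155 without 1 library. 998 genes were called lower, or 2118 with DESeq2, 0 with all 10 libraries, 1876 with limma, 1586 with limma at 0.1, 2566 with filtered limma, 2285 with the replicate block, 4562 with replicate 3 alone and 1874 with 7 libraries, and 0 to 3087 without 1 library. 1 of the ErbB genes was called higher, or 2 with DESeq2, 0 with all 10 libraries, limma and filtered limma and 5 with replicate 3 alone, and 0 to 2 without 1 library. 1 of the ErbB genes was called lower, or 2 with median-of-ratios scaling, DESeq2, limma, limma at 0.1, filtered limma, the replicate block and 7 libraries, 0 with all 10 libraries and 3 with replicate 3 alone, and 0 to 2 without 1 library. Between Lgr5 positive cells and differentiated epithelium, 5005 genes were called higher, or 0 with all 10 libraries and 721 with 7 libraries. 4637 genes were called lower, or 0 with all 10 libraries, 3031 with filtered limma and 946 with 7 libraries. 1 of the ErbB genes was called higher, or 0 with median-of-ratios scaling, DESeq2, all 10 libraries and 7 libraries and 2 with limma, limma at 0.1 and filtered limma, and 0 to 1 without 1 library. 3 of the ErbB genes were called lower, or 2 with limma and limma at 0.1 and 0 with all 10 libraries and 7 libraries.

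Sign changes concerned fold changes (log2) that were not called. Between Foxl1 positive and Foxl1 negative cells, Errfi1 went from -0.58 to 0.040 with limma and filtered limma, 0.24 with limma at 0.1, 0.34 with the replicate block, 0.67 with replicate 3 alone and -1.98 to 2.49 without 1 library. Lrig2 went from 0.32 to -0.053 with all 10 libraries and -0.24 to 12.15 without 1 library. Spry4 went from -1.27 to 0.18 with limma and filtered limma, 1.92 with limma at 0.1, 8.83 with the replicate block and -1.85 to 11.74 without 1 library. Between Foxl1 positive and Lgr5 positive cells, Erbb2 went from -0.20 to 0.10 with the replicate block and -0.58 to 0.13 without 1 library. Spry1 went from 1.18 to -0.069 with limma and filtered limma and -0.18 with limma at 0.1. Spry2 went from 1.38 to -0.14 with limma and filtered limma, -0.20 with limma at 0.1 and -0.76 with replicate 3 alone. Between Foxl1 positive cells and differentiated epithelium, Errfi1 went from 0.14 to -0.71 with limma and filtered limma, -0.81 with limma at 0.1, -1.17 with the replicate block and -1.45 to 0.79 without 1 library. Spry2 went from 1.71 to -0.56 with replicate 3 alone. Between Lgr5 positive cells and differentiated epithelium, Egfr went from 0.013 to -0.11 with median-of-ratios scaling, -0.10 with DESeq2, -0.026 with no filter, -0.0084 with a filter of 1 CPM, -0.18 with 7 libraries and -0.43 to 0.53 without 1 library. Lrig2 went from -0.34 to 0.17 with limma and filtered limma, 0.27 with limma at 0.1 and -0.76 to 0.14 without 1 library. Lrig3 went from -0.37 to 0.16 with limma and filtered limma and 0.19 with limma at 0.1.

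The replicate numbers were not taken to pair the libraries. Deviations of same-numbered libraries correlated at 0.06, 0.00 and 0.07 between Foxl1 positive and negative cells, and at -0.01 and 0.06, -0.16 and 0.14, and 0.39 and 0.39 in the others. Under the replicate block Lrig3 and Spry2 were not called between Foxl1 positive and Foxl1 negative cells (edgeR, adjusted p = 0.0914 for both). Spry4 and Erbb3 kept their calls against the epithelial groups, and Erbb2 passed against differentiated epithelium (edgeR, adjusted p = 0.0208). Foxl1 positive replicate 3 has no same-numbered epithelial library, so its own block term takes it up. Against the epithelial groups the block fit thus leaves replicate 3 out of the fold change. Depth limits the Foxl1 negative libraries most, where 3 counts are 1.81, 0.399 and 0.139 CPM.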
